A study of Mus musculus with 12 samples.

Results

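The genes described are those of the shelterin complex (Terf1, Terf2, Terf2ip, Tinf2, Acd, Pot1a and Pot1b), the telomere-associated gene Rif1 and the telomerase genes Tert and Dkc1, in mouse embryonic stem (ES) cells. They were chosen by name, with earlier results of these data known. Every probe that the array gives to any of them was kept apart, because probes of 1 gene can differ. The 10 genes, of 20044 with a symbol on the array, had 21 probes. The array's own gene name was the current symbol for 14 probes of 7 genes, and 7 probes of 3 genes stood under older names (Pot1a as Pot1, Pot1b as 2810458H16Rik, Dkc1 as BC068171).

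Shelterin coats the TTAGGG repeats at chromosome ends and keeps them from being treated as broken DNA. TRF1 (Terf1) and TRF2 (Terf2) bind the double-stranded repeat, TIN2 (Tinf2) bridges them, TPP1 (Acd) joins TIN2 to the POT1 proteins, and POT1a and POT1b bind the single-stranded overhang. RAP1 (Terf2ip) rides on TRF2. In mouse the ancestral Pot1 gene is duplicated, so the pair divide its tasks. Telomerase, made of the reverse transcriptase TERT, the RNA template and the H/ACA protein dyskerin (Dkc1), adds repeats, and ES cells are known for keeping it active. RIF1 was found in yeast as a RAP1 partner at telomeres. In mammals it is known mainly for restraining resection at DNA breaks and for replication timing, and its level is high in mouse ES cells.

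Messenger RNA was measured on 12 Agilent 2-colour arrays from 7 RNAs: Dicer1-null 27G5 and 27H10 cells labelled as overexpressing Dnmt3a,3b, the same 2 lines labelled as overexpressing Dnmt1, the unmodified Dicer1-null 27G5 and 27H10 cells, and wild-type ES cells. All were grown on gelatin with leukaemia inhibitory factor, without another treatment, and the engineered lines are Dicer1-null as well. The lines 27G5 and 27H10 are called cultures in the labels and are treated here as 2 clones, the only replicates (n = 2). The wild-type RNA and each Dicer-null RNA were hybridised again and again, and nothing in the labels gives a separate culture for each array. The p-values rest on the spread between clones on these arrays, pooled over the 3 comparisons and moderated over all probes. They can therefore depart from the SD of the 2 clones printed beside them. Both clones were set against the same wild-type RNA, so spread between wild-type cultures does not enter the p-values. Every pair of RNAs was hybridised on 2 arrays with the dyes exchanged, giving 4 arrays for each of 3 comparisons: Dicer-null over wild type, and each Dnmt-labelled line over the Dicer-null line of the same clone. The study behind these arrays dealt with telomere recombination in Dicer-null cells.

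The labels were checked first. A Dicer1 probe stood at a log2 ratio of -4.13 (27G5) and -4.02 (27H10) in Dicer-null over wild type, while a second Dicer1 probe stood at -0.50 and -0.56. The Dnmt1 probe stood at 0.10 and 0.43 in the Dnmt1-labelled lines over Dicer-null and was not called (adjusted p = 0.109, limma). In the Dnmt3a,3b-labelled lines the Dnmt3b probe was called lower, at -1.46 and -0.62 (adjusted p = 0.0306), and none of the 3 Dnmt3a probes was called. The arrays did not show the labelled genes as raised, and these lines are named only by their labels. All 9 ES cell marker genes looked for were well above background in all 24 channels, so the cells carry the markers of their label. The summed signal of the trophoblast list was 191318 to 197624 in the Dnmt3a,3b-labelled lines, 193864 to 249856 in the Dnmt1-labelled lines, 62323 to 70434 in the Dicer-null lines and 192081 in wild type, and no gene of the list was absent. That sum rests mostly on the bright Krt8 and Krt18 probes, and Krt7 and Gata3 moved in the same directions. Cdx2 read 8.92 in wild type, 6.36 and 6.72 in the Dicer-null lines and 6.72 to 7.23 in the engineered lines. Tfap2c read 11.94 in wild type and 12.11 and 11.59 in the Dicer-null lines, and was higher in the engineered lines. Fibroblast markers, which feeder cells would carry, summed to 2548 to 3057 over the engineered lines, 3033 to 3701 in the Dicer-null lines and 10435 in wild type. In bulk RNA, fewer cells of a type and less RNA per cell cannot be told apart. Median signals per array were 112 to 135 in green and 234 to 334 in red, and the number of arrays limits the precision. The arrays of the engineered 27G5 lines lay on 1 slide and those of 27H10 on another, so clone and slide cannot be told apart there, but each ratio is taken within an array.

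The sequences that the findings turn on are those of the 60-base probes of Terf2, Rif1 and Dkc1, printed 5′ to 3′ in lower case with their mm7 positions. The exon or UTR at a position was not looked up, since no annotation of that build was used here. Terf2 is read from the minus strand, so higher coordinates lie nearer its 5′ end, and its 4 probes form 2 pairs, 6300 genomic bases apart. They are shown because the pairs moved in opposite directions. The first 2 lines are the 5′-side pair and the next 2 the 3′-side pair.
Terf2 A_52_P580017, chr8:105677056-105677115, minus strand: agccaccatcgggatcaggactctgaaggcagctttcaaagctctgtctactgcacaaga
Terf2 A_52_P391210, chr8:105676938-105676997, minus strand: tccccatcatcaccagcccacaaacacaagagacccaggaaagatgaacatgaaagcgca
Terf2 A_52_P427544, chr8:105670578-105670637, minus strand: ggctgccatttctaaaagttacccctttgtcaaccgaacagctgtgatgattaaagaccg
Terf2 A_51_P458086, chr8:105670079-105670139, minus strand: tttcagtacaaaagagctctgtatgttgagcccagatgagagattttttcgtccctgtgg
The Rif1 and Dkc1 probes are shown because they had the largest ratios. The first Dkc1 probe covers 490 genomic bases and so crosses a splice junction.
Rif1 A_51_P439711, chr2:52118400-52118459, plus strand: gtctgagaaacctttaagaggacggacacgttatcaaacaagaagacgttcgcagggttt
Rif1 A_51_P305693, chr2:52129017-52129076, plus strand: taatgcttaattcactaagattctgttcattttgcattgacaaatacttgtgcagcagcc
Dkc1 A_51_P469633, chrX:70487162-70487651, plus strand: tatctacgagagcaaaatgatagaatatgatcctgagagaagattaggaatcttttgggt
Dkc1 A_52_P406828, chrX:70495783-70495842, plus strand: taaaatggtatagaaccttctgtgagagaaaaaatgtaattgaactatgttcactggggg

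Of the 21 probes, 20 were bright enough to test. The Pot1b probe A_52_P124219, at chr17:53852809-53852868, was not well above background in any of the 24 channels. A probe was called when its limma p, adjusted by Benjamini-Hochberg over all 28818 probes tested, was under 0.05. In Dicer-null over wild type 12 of the 20 member probes were called, 4 higher and 8 lower, where 39.8% of all probes were called (20% higher and 19.8% lower). In the Dnmt1-labelled lines over Dicer-null 10 were called, 3 higher and 7 lower, against a background of 22.8% (11.6% higher and 11.2% lower). In the Dnmt3a,3b-labelled lines over Dicer-null 9 were called, 3 higher and 6 lower, against 22% (10.8% higher and 11.2% lower). The median log2 ratio of the 20 probes was -0.17, -0.05 and -0.09 in these 3 comparisons, beside 0.009, 0.005 and 0.011 over all probes. In Agilent's own processed ratio the calls were 1 higher and 5 lower over wild type, 2 higher and 4 lower with the Dnmt1 label and 1 higher and 5 lower with the Dnmt3a,3b label, and with median centring over wild type they were 2 higher and 7 lower. The shares of all probes called under those settings are not given here.

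**Figure D1:**
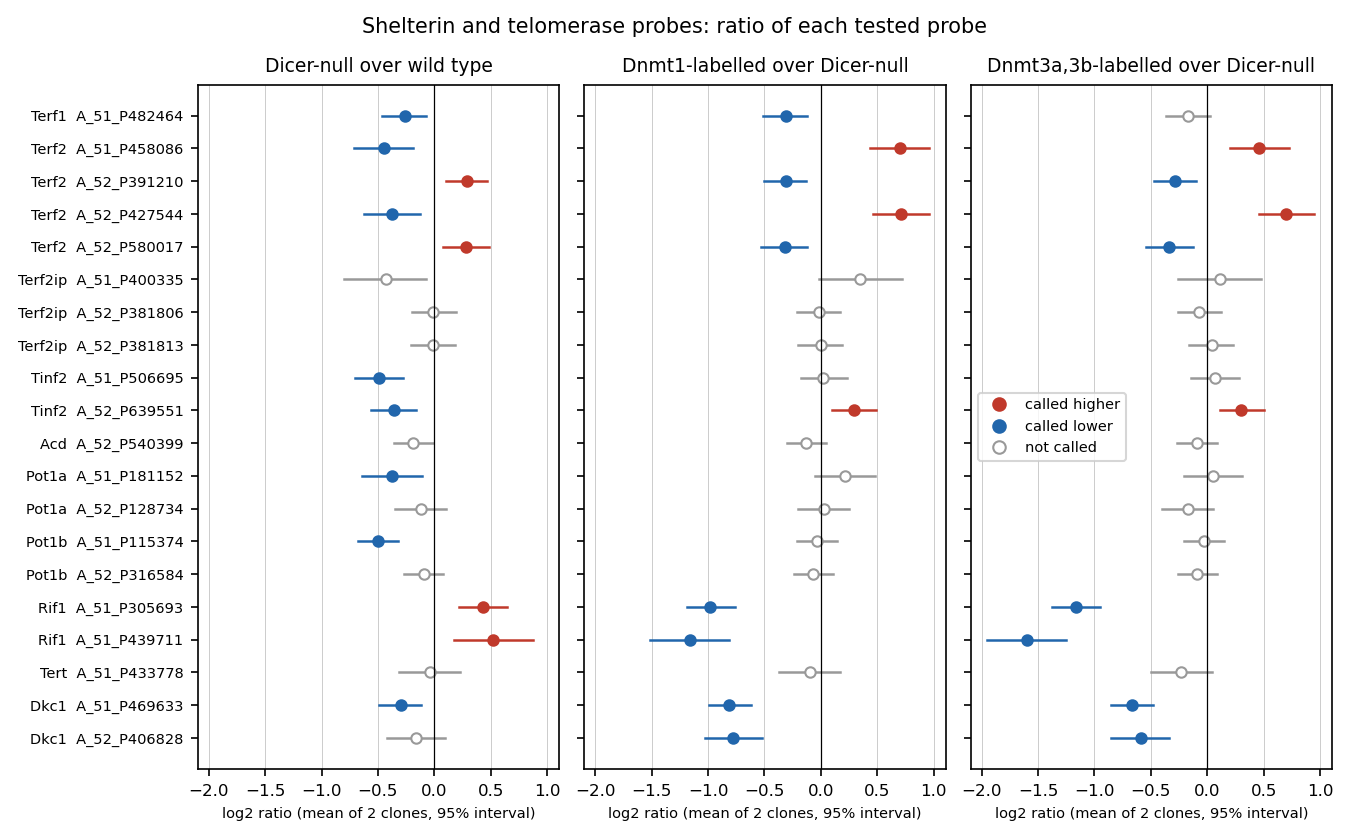
Log2 ratio of the 20 tested probes (rows) in the 3 comparisons (panels): points are means of 2 clones, bars the 95% interval of the limma fit, filled points were called. Terf2 probes lie on both sides of 0 in every panel, and Rif1 reaches the lowest values, -1.60 and -1.16, in the Dnmt3a,3b-labelled lines.

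The Dicer-null RNA of a clone is on top of the ratio to wild type and below the line in both ratios of the engineered lines. An error in its level would enter the first with one sign and the others with the opposite sign, and the 2 engineered comparisons share it. With the shared RNAs modelled in the fit, 0, 2 and 2 member probes were called in the 3 comparisons, and the ratios were the same. The share of all probes called in that fit, or with a clone left out, is not given here. Lower counts therefore cannot be read as particular to the members. With 1 clone left out of a comparison, the count over wild type was 3 without 27G5 and 0 without 27H10, in the Dnmt1-labelled lines 7 and 6, and in the Dnmt3a,3b-labelled lines 0 and 1.

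Terf2, which encodes the shelterin subunit that blocks end-to-end fusion of telomeres, gave 2 opposite readings. The 3′-side pair fell in Dicer-null cells and rose in both engineered lines. The 5′-side pair did the reverse. On the 4 arrays of Dicer-null over wild type, the probe A_51_P458086 stood at -0.53 and -0.20 for 27G5 and at -0.57 and -0.51 for 27H10. Its neighbour A_52_P427544, 438 bases upstream, stood at -0.17 and -0.50 for 27G5 and at -0.29 and -0.54 for 27H10. All 8 values of the pair were below 0. The 5′-side probes, 58 bases apart, stood at 0.15, 0.23, 0.33 and 0.41 (A_52_P580017) and at 0.26, 0.29, 0.32 and 0.27 (A_52_P391210), all above 0.

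The mean ratios over wild type were -0.45 ± 0.12 and -0.38 ± 0.06 for the 3′-side pair and 0.28 ± 0.13 and 0.29 ± 0.02 for the 5′-side pair (SD, n = 2), with adjusted p between 0.0185 and 0.041 (limma). In the Dnmt1-labelled lines the 3′-side probes rose by 0.70 ± 0.10 (A_51_P458086, 1.62-fold, adjusted p = 0.0102) and 0.71 ± 0.23 (A_52_P427544, 1.64-fold, adjusted p = 0.00852). The 5′-side probes fell there, at -0.32 ± 0.06 and -0.31 ± 0.07 (adjusted p = 0.0412 and 0.0343). In the Dnmt3a,3b-labelled lines the 3′-side probes rose by 0.46 ± 0.22 and 0.70 ± 0.09 (adjusted p = 0.0313 and 0.00898). One array of 27G5 went against the first of these, at -0.11, beside 0.72, 0.38 and 0.85 on the other arrays. The 5′-side probes fell at -0.34 ± 0.06 and -0.29 ± 0.07 (adjusted p = 0.038 and 0.0445, the second 0.0611 with clone as a block).

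Taken within each array, the 3′-side pair minus the 5′-side pair was below 0 on 4 of 4 arrays of Dicer-null over wild type, between -0.87 and -0.56. It was above 0 on 4 of 4 arrays of each engineered comparison, between 0.91 and 1.13 in the Dnmt1-labelled lines and between 0.72 and 1.05 in the Dnmt3a,3b-labelled lines. The gap averaged -0.70 ± 0.16, 1.02 ± 0.00 and 0.90 ± 0.09 over the 2 clones. No test was made of the gap itself. The 2 pairs differ in base composition, with 51.7% and 50% G and C in the 5′-side probes and 45.0% and 43.3% in the 3′-side probes, and the part of this in the result was not tested. Agilent's own processed ratio kept every direction, but no 5′-side probe stayed called (adjusted p between 0.0691 and 0.116). Both 3′-side probes stayed called over wild type and with the Dnmt1 label, and only A_52_P427544 with the Dnmt3a,3b label, where A_51_P458086 was at 0.49 (adjusted p = 0.0534). With either clone left out, the only Terf2 calls that stayed were those of the 3′-side pair with the Dnmt1 label, and these ended with that comparison fitted alone (adjusted p = 0.0744 and 0.0879). None of the Terf2 calls was left with the shared RNAs modelled (adjusted p between 0.0565 and 0.458).

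**Figure D2:**
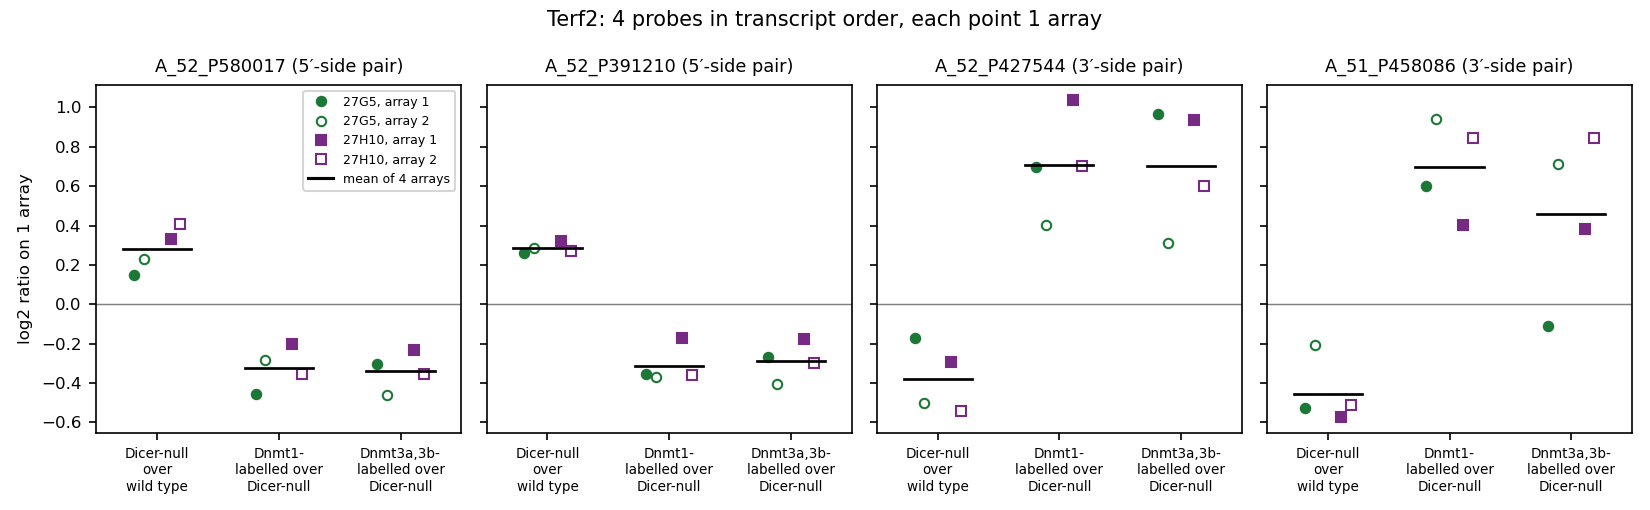
Log2 ratio of each Terf2 probe on each array (points), by comparison, in transcript order from 5′ (left panel) to 3′ (right panel). Circles are 27G5, squares 27H10, filled array 1, open array 2 with dyes exchanged, and the bar is the mean of 4 arrays: the left panels are above 0 over wild type and below it in the engineered lines, the right panels the reverse except for 1 array at -0.11.

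In levels, on the normalized log2 signal of a single probe, A_52_P427544 read 9.88 and 9.84 in the Dnmt3a,3b-labelled lines, 9.78 and 10.01 in the Dnmt1-labelled lines, 9.24 and 9.13 in the Dicer-null lines (27G5 and 27H10 each) and 9.59 in wild type. A_52_P391210 read 9.84 and 9.83 in the Dnmt3a,3b-labelled lines, 9.82 and 9.81 in the Dnmt1-labelled lines, 10.14 and 10.11 in the Dicer-null lines and 9.85 in wild type. On that probe the arrays of wild type (9.77 to 9.91) overlapped those of all 4 engineered lines, and none of these overlapped the Dicer-null arrays (10.04 to 10.24). On the A_52_P427544 probe the wild-type arrays ran from 9.46 to 9.73, above the Dicer-null arrays at 9.05 to 9.34. No array carried an engineered line beside wild type, so that pair of groups was not tested.

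**Figure D3:**
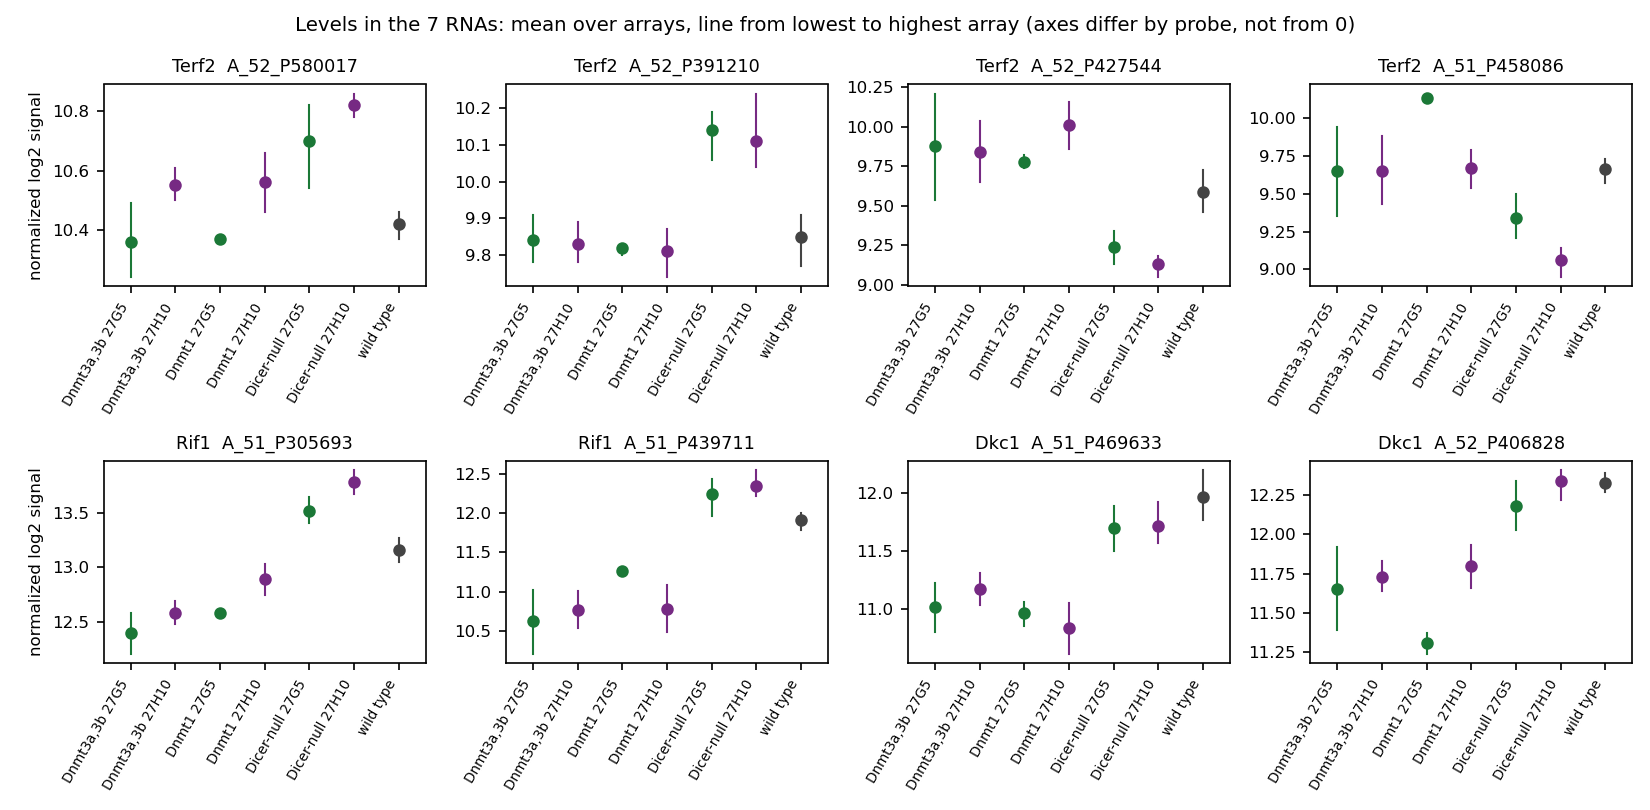
Normalized log2 signal of the Terf2, Rif1 and Dkc1 probes in the 7 RNAs: points are means over arrays, lines run from the lowest to the highest array, green is 27G5, purple 27H10 and grey wild type. Axes differ between panels and do not start at 0, and the Rif1 levels of the 4 engineered lines lie below those of the Dicer-null lines and of wild type.

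Terf1, whose product counts telomere length by coating the duplex repeat, fell modestly. Its single probe, at chr1:16026381-16026440, stood at -0.50 and -0.18 (27G5) and -0.33 and -0.04 (27H10) on the arrays of Dicer-null over wild type, a mean of -0.26 ± 0.11 (adjusted p = 0.0433, limma). All 4 arrays were below 0, although the last barely. In the Dnmt1-labelled lines it stood at -0.31 ± 0.03 (adjusted p = 0.0406), and in the Dnmt3a,3b-labelled lines at -0.17 ± 0.07, not called (adjusted p = 0.175). With clone as a block the called ratios were at adjusted p = 0.0673 over wild type and 0.0615 in the Dnmt1-labelled lines.

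Tinf2, the hub that holds TRF1, TRF2 and TPP1 together, fell in Dicer-null cells on both of its probes. A_51_P506695, at chr14:50546082-50546141, stood at -0.33, -0.50, -0.58 and -0.56 on the 4 arrays, a mean of -0.49 ± 0.11 (adjusted p = 0.00657, limma), and it was -1.21 in Agilent's processed ratio. A_52_P639551, which spans 164 genomic bases at chr14:50546703-50546866, stood at -0.28, -0.52, -0.19 and -0.45, a mean of -0.36 ± 0.05 (adjusted p = 0.0164). Only A_52_P639551 was called in the engineered lines, at 0.29 ± 0.13 with the Dnmt1 label and 0.30 ± 0.03 with the Dnmt3a,3b label (adjusted p = 0.0491 and 0.0465). Both calls ended with clone as a block (adjusted p = 0.067 and 0.0635). The first probe read 0.02 ± 0.11 and 0.07 ± 0.07 in the same lines. Whether the 2 probes differ from each other was not tested.

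Acd, the source of TPP1, which recruits telomerase to the end, was not called. Its probe at chr8:104298548-104298607 was below 0 on 4 of 4 arrays over wild type, at -0.19 ± 0.03 (adjusted p = 0.0893), and stood at -0.13 ± 0.05 with the Dnmt1 label and -0.09 ± 0.03 with the Dnmt3a,3b label. The 95% intervals were -0.36 to -0.01, -0.30 to 0.05 and -0.27 to 0.09.

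Pot1a and Pot1b each had a probe that fell in Dicer-null cells. The Pot1a probe A_51_P181152, at chr6:25676124-25676183, stood at -0.55 and -0.23 (27G5) and -0.41 and -0.33 (27H10), a mean of -0.38 ± 0.01 (adjusted p = 0.0364, limma). The Pot1b probe A_51_P115374, at chr17:53812583-53812642, stood at -0.71 and -0.23 (27G5) and -0.58 and -0.50 (27H10), a mean of -0.50 ± 0.05 or 1.42-fold lower (adjusted p = 0.00364). Its size moved with the processing, to -0.934 in Agilent's processed ratio (adjusted p = 0.00233, limma). The Pot1a call was lost in that ratio, at -0.387 (adjusted p = 0.0679). With the shared RNAs modelled neither the Pot1a nor the Pot1b call held (adjusted p = 0.28 and 0.0862). All 8 array values of these Pot1a and Pot1b probes were below 0. Neither was called in the engineered lines. Pot1a stood at 0.21 ± 0.28 with the Dnmt1 label and 0.05 ± 0.06 with the Dnmt3a,3b label, and Pot1b at -0.03 ± 0.05 and -0.03 ± 0.03. With the Dnmt3a,3b label the Pot1a mean averaged opposite signs of the 2 dye orientations, -0.32 and 0.50 (27G5) and -0.18 and 0.20 (27H10). The same held for Pot1a in 27H10 with the Dnmt1 label, at -0.28 and 0.31. Pot1b levels were 6.85 and 6.90 in the Dnmt3a,3b-labelled lines, 6.91 and 6.76 in the Dnmt1-labelled lines, 6.95 and 6.90 in the Dicer-null lines and 7.51 in wild type, where the arrays (7.50 to 7.52) were above those of every other RNA (at most 7.27).

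The other probes of the POT1 pair were dim. Pot1a A_52_P128734, at chr6:25725858-25725917, was well above background on 0 to 2 of the 2 arrays of each engineered line and stood at -0.12 ± 0.11 over wild type, not called. Pot1b A_52_P316584, at chr17:53856928-53856987, was well above background on 2 of 4 arrays in wild type and in no other RNA, and was not called in any comparison. Its value moved with the processing: with the Dnmt3a,3b label it was -0.087 here, but -0.872 in Agilent's processed ratio (adjusted p = 0.0438) and -0.864 in a fit to the ratios of the authors' deposited table (0.0373), and over wild type -0.095 here, against -0.721 in that fit (0.0428). Cross-hybridisation between the paralogues was not tested.

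Terf2ip, the RAP1 gene, was not called on any of its 3 probes. A_52_P381813 at chr8:110618149-110618208 and A_52_P381806 at chr8:110618580-110618639 stood at -0.01 ± 0.01 and -0.01 ± 0.04 over wild type, with 95% intervals of -0.21 to 0.18 and -0.20 to 0.19. These means average opposite signs of the 2 dye orientations, which also differed in sign in the engineered lines. Over wild type A_52_P381813 read 0.22 and -0.26 (27G5) and 0.09 and -0.10 (27H10). A_52_P381806 read 0.14 and -0.21 (27G5) and 0.08 and -0.04 (27H10). The probe nearest the 3′ end, A_51_P400335 at chr8:110620171-110620230, read lower over wild type on 4 of 4 arrays, at -0.34 (27G5) and -0.53 (27H10), with an adjusted p of 0.0642 (limma). It was called lower under 2 alternatives, on the arrays numbered 2 alone (-0.564, adjusted p = 0.0254) and with the comparison fitted alone (adjusted p = 0.0127). In the engineered lines its clones differed: 0.11 for 27G5 and 0.60 for 27H10 with the Dnmt1 label, and -0.08 and 0.30 with the Dnmt3a,3b label.

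Rif1 had the largest ratios of the set. It rose in Dicer-null cells and fell in both engineered lines, on both probes. Over wild type, A_51_P305693 stood at 0.43 and 0.19 (27G5) and 0.58 and 0.52 (27H10), a mean of 0.43 ± 0.17 (adjusted p = 0.0115, limma). A_51_P439711 stood at 0.33 and 0.64 (27G5) and 0.55 and 0.57 (27H10), a mean of 0.52 ± 0.05 (adjusted p = 0.0313). All 8 values were above 0. Neither Rif1 call over wild type held with the shared RNAs modelled (adjusted p = 0.255 and 0.24, limma). A_51_P439711 also lost its call with Agilent's processed ratio (0.0508), the authors' deposited table (0.0541) and the arrays numbered 1 alone (0.0949).

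In the Dnmt1-labelled lines A_51_P305693 stood at -0.97, -1.04, -0.86 and -1.03, a mean of -0.98 ± 0.04 or 1.97-fold lower (adjusted p = 0.00311). A_51_P439711 stood at -1.07 and -0.66 for 27G5 and -1.74 and -1.18 for 27H10, a mean of -1.16 ± 0.42 (adjusted p = 0.00596), so the clones were further apart on this probe. In the Dnmt3a,3b-labelled lines the means were -1.16 ± 0.03 (2.24-fold lower, adjusted p = 0.00244) and -1.60 ± 0.05 (3.04-fold lower, adjusted p = 0.00338). Every array of both comparisons was below 0, the highest at -0.66 and the lowest at -2.10. Both probes stayed called in the Dnmt3a,3b-labelled lines with the shared RNAs modelled (adjusted p = 0.0416 and 0.0337), and A_51_P439711 in the Dnmt1-labelled lines (0.0495), where A_51_P305693 was at 0.0502. With the Dnmt3a,3b label neither probe stayed called without 27G5 (adjusted p = 0.057 and 0.0669), and without 27H10 A_51_P305693 did (0.0488) and A_51_P439711 did not (0.0526). With the Dnmt1 label both stayed called with either clone left out, but neither did with that comparison fitted alone (0.0597 and 0.0697). Over wild type A_51_P439711 lost its call with either clone left out (0.166 and 0.218), and A_51_P305693 lost it without 27H10 (0.16).

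The level of Rif1 on A_51_P305693 was 12.40 and 12.58 in the Dnmt3a,3b-labelled lines, 12.58 and 12.89 in the Dnmt1-labelled lines, 13.52 and 13.78 in the Dicer-null lines and 13.16 in wild type. The arrays of the 4 engineered lines (12.21 to 13.03) lay below those of wild type (13.05 to 13.27), and these below the Dicer-null arrays (13.41 to 13.89). Between the 2 engineered lines of a clone the arrays overlapped in 27G5 and not in 27H10, where they ran from 12.48 to 12.69 with the Dnmt3a,3b label and from 12.75 to 13.03 with the Dnmt1 label. Trophoblast marker probes moved as well: 7 of 8 tested probes fell over wild type, and 7 and 8 rose in the Dnmt1- and Dnmt3a,3b-labelled lines. Of 10 fibroblast marker probes 8 fell over wild type and 1, for Dcn, rose, at 2.02 (adjusted p = 0.000234). Dcn fell in the engineered lines, at -2.45 and -2.52, and Col1a1 fell on 1 probe with the Dnmt1 label, at -0.52. Of 8 primitive endoderm probes 4 fell over wild type (Dab2 at -2.20, Amn at -1.25), and 1 and 2 rose in the Dnmt1- and Dnmt3a,3b-labelled lines. Of the 2 mesoderm probes, T fell over wild type, at -2.46, and Kdr rose there, at 1.67, and fell in the engineered lines, at -1.31 and -1.13. Of the 4 neuroectoderm probes, 2 for Pax6 rose in both engineered lines, by 0.92 to 1.23, and Nes fell over wild type and in both engineered lines, at -0.91, -1.12 and -1.09. The part of these markers in the Rif1 and Terf2 results was not tested. Of 11 ES cell marker probes 9 rose over wild type, 2 and 1 rose in the engineered lines and none fell.

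Of the telomerase genes, Tert was not called in any comparison and Dkc1 was called in all 3, over wild type on 1 probe only and with its sign turned on the arrays numbered 2 alone. Tert, the catalytic subunit, had 1 probe, at chr13:70580959-70581018. It stood at -0.19 and 0.04 (27G5) and -0.03 and 0.02 (27H10) on the arrays of Dicer-null over wild type, a mean of -0.04 ± 0.05 with a 95% interval of -0.31 to 0.23. In the Dnmt1-labelled lines it was 0.11 for 27G5 and -0.31 for 27H10, and in the Dnmt3a,3b-labelled lines -0.23 ± 0.00, not called (adjusted p = 0.56 and 0.193, limma). Its levels were 8.65 and 8.76 in the Dnmt3a,3b-labelled lines, 8.94 and 8.65 in the Dnmt1-labelled lines, 8.94 and 9.04 in the Dicer-null lines and 9.18 in wild type. Within 27G5 the Dicer-null arrays (8.74 to 9.16) overlapped those with the Dnmt1 label (8.87 to 9.02) and lay above those with the Dnmt3a,3b label (8.64 to 8.66). Within 27H10 the Dicer-null arrays (8.94 to 9.24) lay above those of both engineered lines (8.65 to 8.86), and the wild-type arrays (9.11 to 9.26) overlapped the Dicer-null arrays of both clones.

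Dkc1, whose product dyskerin stabilises the telomerase RNA and also acts in pseudouridylation of ribosomal RNA, fell in both engineered lines. With the Dnmt1 label the junction-crossing probe A_51_P469633 stood at -1.05 and -0.44 (27G5) and -1.22 and -0.52 (27H10), a mean of -0.81 ± 0.09 or 1.75-fold lower (adjusted p = 0.00352, limma). A_52_P406828 stood at -0.80, -1.10, -0.48 and -0.74, a mean of -0.78 ± 0.24 (adjusted p = 0.00728). With the Dnmt3a,3b label the means were -0.67 ± 0.05 and -0.59 ± 0.07 (adjusted p = 0.00528 and 0.0148). Every value was below 0, and the 2 dye orientations differed more than the 2 clones on A_51_P469633. With the shared RNAs modelled, that probe stayed called with the Dnmt1 label (adjusted p = 0.0389), and the other Dkc1 ratios were at 0.052 to 0.138.

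Over wild type the reading of Dkc1 differed between dye orientations. A_51_P469633 was called lower at -0.30 ± 0.02 (adjusted p = 0.0241), but it stood at -0.70 and -0.54 on the arrays numbered 1 and at 0.07 and -0.03 on those numbered 2, which alone gave 0.019. A_52_P406828 stood at -0.16 ± 0.09 and was not called (adjusted p = 0.27). Over all tested member probes and ratios, the 2 arrays of a pair differed by a median of 0.23, at most 0.93, and had opposite signs in 29 of 120 cases.

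**Figure D4:**
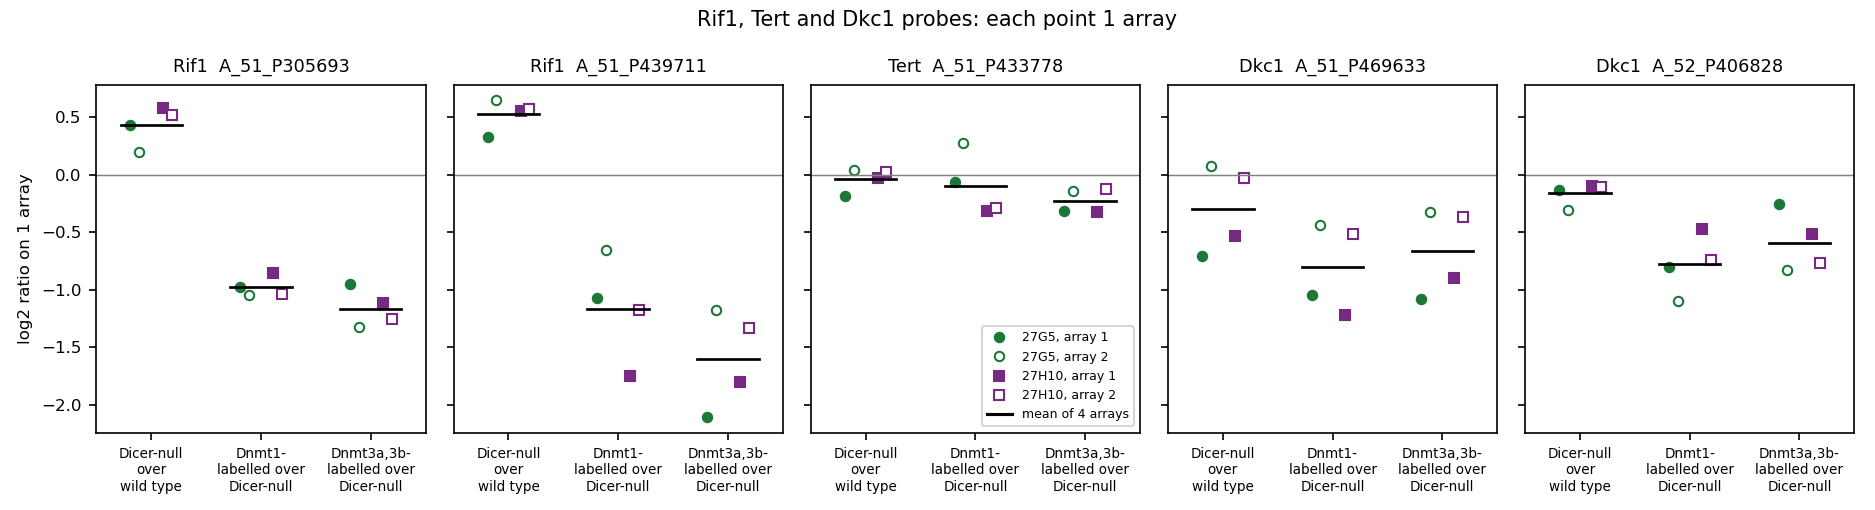
Log2 ratio of the Rif1, Tert and Dkc1 probes on each array (points), by comparison, with symbols by clone and array as in the legend and a bar at the mean of 4 arrays. Rif1 is above 0 on all arrays over wild type and below it on all arrays of the engineered lines, Tert stays within -0.33 to 0.27, and Dkc1 is below 0 on all arrays of the engineered lines.

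Between the engineered lines nothing was called. Set against each other within each clone, Dnmt3a,3b-labelled minus Dnmt1-labelled, 0 of 20 member probes were called, as were 0 (0%) of 28818 probes overall in limma. At an unadjusted p under 0.05 there were 0 member probes and 283 of all probes. The fit treats the ratios of the engineered lines as independent, although within a clone both hold the same Dicer-null RNA. The absence of calls therefore does not show that the lines are alike. The lowest unadjusted p was 0.0724, for Rif1 A_51_P439711, which stood at -0.77 in 27G5 and -0.11 in 27H10 with a 95% interval of -0.93 to 0.06. For Dkc1 the intervals were -0.12 to 0.40 and -0.17 to 0.55, and for Terf2 A_52_P427544 -0.36 to 0.34.

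Other telomere genes were read as 4 lists, chosen with earlier results of these data known. The CST complex (Ctc1, Stn1, Ten1) fills in the strand opposite the overhang. Stn1 fell on both probes over wild type, at -0.64 ± 0.17 and -0.57 ± 0.18 (adjusted p = 0.00386 and 0.0061, limma), and rose on both in the Dnmt1-labelled lines, at 0.38 ± 0.09 and 0.41 ± 0.13, and in the Dnmt3a,3b-labelled lines, at 0.36 ± 0.11 and 0.37 ± 0.05. Ctc1 rose over wild type, at 0.68 ± 0.09 (adjusted p = 0.00183). Ten1 rose in the Dnmt3a,3b-labelled lines, at 0.29 ± 0.10 (adjusted p = 0.0499). Of 4 probes tested, 1 rose and 2 fell over wild type, 2 rose with the Dnmt1 label and 3 with the Dnmt3a,3b label. The share called was 75%, 50% and 75%, beside 39.8%, 22.8% and 22% of all probes. It rests on only 4 probes, 2 of them for Stn1.

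Of 22 probes for 12 genes of the telomerase ribonucleoprotein and its assembly, 4 rose and 2 fell over wild type (median 0.14), and 1 rose and 3 fell in each engineered comparison (medians 0.03 and -0.01). The share called was 27.3% over wild type and 18.2% in each engineered comparison, below the 39.8%, 22.8% and 22% of all probes. Nop10 and Gar1 encode H/ACA proteins that are partners of dyskerin. The 2 probes of the list called lower over wild type were theirs, at -0.72 ± 0.10 and -0.47 ± 0.02 (adjusted p = 0.00485 and 0.0119, limma). Pinx1, which encodes a telomerase inhibitor, rose there on 1 probe, at 0.61 ± 0.22, and fell in the engineered lines on 2 probes, at -0.69 ± 0.23 and -0.60 ± 0.26 with the Dnmt1 label and -0.84 ± 0.03 and -0.46 ± 0.10 with the Dnmt3a,3b label. Parn, a deadenylase that matures the telomerase RNA, rose in both on 1 of its 2 probes, at 0.48 ± 0.19 and 0.46 ± 0.03. Parn's second probe was not called, at 0.15 ± 0.02 and 0.23 ± 0.05. Smg6, which encodes a telomerase-associated nuclease of RNA decay, fell in both on 1 of its 5 tested probes, at -0.37 ± 0.09 and -0.45 ± 0.17. The other 4 were not called, at 0.07 to 0.29 with the Dnmt1 label and -0.19 to 0.32 with the Dnmt3a,3b label. Tep1, which encodes a telomerase-associated protein, rose over wild type on both probes, at 0.64 ± 0.03 and 0.57 ± 0.07. Terc, the RNA template, named after its values were seen, disagreed between its 2 probes over wild type: A_51_P248935 stood at 0.50 and 1.21 (adjusted p = 0.0364) and A_52_P544476 at -0.15 and 0.04 (adjusted p = 0.815).

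Of 27 probes for 16 shelterin partners and end-processing genes, 5 rose and 2 fell over wild type (median 0.00), 1 rose and 4 fell with the Dnmt1 label and 1 rose and 3 fell with the Dnmt3a,3b label. The share called was 25.9%, 18.5% and 14.8%, below that of all probes in each comparison. Ercc4 and Ercc1 encode the 2 subunits of a nuclease that trims telomere overhangs. Ercc4 rose over wild type on 2 probes, at 1.01 ± 0.01 and 0.56 ± 0.02, and Ercc1 fell there, at -0.57 ± 0.02, and rose in the engineered lines, at 0.39 ± 0.21 and 0.52 ± 0.08. Pif1, a helicase that strips telomerase from ends in yeast, rose over wild type at 0.62 ± 0.10. Tnks2, a tankyrase that modifies TRF1, fell in the engineered lines on 1 of its 2 probes, at -0.71 ± 0.46 and -0.63 ± 0.14, and stood at 0.15 ± 0.04 and 0.03 ± 0.02 on the other (adjusted p = 0.171 and 0.793). The damage kinase gene Atm also fell on 1 of 2 probes, at -0.48 ± 0.16 and -0.62 ± 0.22, with the other at -0.10 ± 0.03 and -0.09 ± 0.20, not called. Nbn, of the complex that senses ends, fell on 2 of its 3 probes with the Dnmt1 label, at -0.30 ± 0.00 and -0.39 ± 0.20, and on 1 with the Dnmt3a,3b label, at -0.41 ± 0.16.

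Of the 4 telomere lists, the recombination list held the largest called ratio in each comparison. Of its 36 tested probes for 19 genes, 12 rose and 10 fell over wild type (median -0.12), 7 rose and 1 fell with the Dnmt1 label, and 7 rose and 2 fell with the Dnmt3a,3b label. The share called was 61.1% over wild type, beside 39.8% of all probes, and 22.2% and 25% in the engineered comparisons, near the 22.8% and 22% of all probes. Since the list was chosen with earlier results known and holds the Zscan4 and Tcstv genes, its share and largest ratio are description only. Zscan4c, of a family known in mouse ES cells for promoting telomere recombination, rose over wild type on 2 probes, at 3.06 ± 0.00 and 3.32 ± 0.20 (adjusted p = 0.000214 and 0.000348). Tcstv1 and Tcstv3, genes of 2-cell-stage embryos, rose over wild type, at 2.25 ± 0.23 and 1.96 ± 0.28 on the probe with the largest statistic, and again with the Dnmt1 label, where Tcstv1 stood at 0.97 ± 0.17, 0.83 ± 0.09 and 1.00 ± 0.14 on 3 probes and Tcstv3 at 0.95 ± 0.13. Tcstv1 also rose with the Dnmt3a,3b label, at 0.84 ± 0.14, 0.88 ± 0.25 and 0.72 ± 0.15. Brca2, a gene of homologous recombination repair, fell there on 1 of its 2 probes, at -1.04 ± 0.20 (adjusted p = 0.0043), and stood at -0.14 ± 0.05 on the other (adjusted p = 0.222). Zscan4 and Tcstv genes have near-identical copies, so their probes may read several of them.

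The 3 member probes with the widest range over the 6 ratios were set beside all other named genes by the root mean square difference of their ratios, a measure over only 6 values that share RNAs. The nearest to Rif1 A_51_P439711 were Znf41-ps (0.149), Malat1 (0.186) and 6430590A10Rik (0.196). For Rif1 A_51_P305693 they were Zfp976 (0.098), Zfp932 (0.103) and Zfp758 (0.119). For Terf2 A_51_P458086 they were Klhdc2 (0.071), Cibar1 (0.091) and Otud7b (0.093).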

How the data were processed

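The 12 arrays (7 RNAs, dye-swapped pairs, 2 clones) were analysed from the scanner files. Per the file headers, the authors extracted spot intensity in red and green, a log10 processed ratio and detection flags with Agilent Feature Extraction, and the probe positions are in mm7. The deposited series table holds log2 ratios. Against the scanner's red over green it correlates at 0.977 to 0.999 on arrays numbered 1 and at -0.968 to -1.00 on arrays numbered 2, so it is already turned to engineered over Dicer-null and Dicer-null over wild type, with column medians from -0.138 to 0.169, and its normalization is not given in the sources used here.

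From the intensities, background was corrected by normexp (offset 50), arrays were normalized by loess with controls and outlier-flagged spots at weight 0, spots were averaged per probe, and dye-swapped arrays were turned to 1 direction and averaged, giving 6 ratios. limma 3.58.1 in R 4.3.3 fitted 1 coefficient per comparison (3 residual degrees of freedom) with Benjamini-Hochberg adjustment over 28818 probes. A probe was tested if present on all arrays and well above background on both arrays of an RNA in a ratio, in the channel that held it. Levels came from loess and Aquantile. The fit was tested on simulated data.

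Every member probe is named. Of the other lists, up to 4 called probes per list and comparison with the largest moderated statistic are named. The members and lists were chosen with earlier results of these data known. The clones pair the ratios, since the labels give the same 2 cell lines in each comparison. Probe accessions and names were matched to current symbols through a RefSeq gene table. The 14 alternatives tried are given in the closing section.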

Additional observations from a re-analysis of the deposited data

Results flagged for a closer look

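In 2 cases the arrays of the clones lay on opposite sides of 0, a difference between clones that was not tested. The share of all probes with such a split is not given here, so these cases cannot be read as particular to the members. With the Dnmt1 label, non-overlapping arrays gave larger gaps (27G5 minus 27H10) for Rif1 A_51_P439711 (0.59), Terf2ip A_51_P400335 (-0.49) and Tert (0.41). Pot1a A_52_P128734 in the Dnmt1-labelled lines over Dicer-null stood at 0.06 and 0.22 on the 27G5 arrays and at -0.06 and -0.12 on the 27H10 arrays, so that 27G5 minus 27H10 was 0.23. The probe was dim and was not called. Terf2ip A_51_P400335 in the Dnmt3a,3b-labelled lines stood at -0.11 and -0.05 for 27G5 and at 0.41 and 0.19 for 27H10, so that 27G5 minus 27H10 was -0.38. Clone and slide cannot be told apart in both.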

How the results depend on the processing

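Of the 31 ratios called over the 3 comparisons, all those with a value kept their direction under 13 of the 14 alternatives, and 30 did on the arrays numbered 2 alone, where Dkc1 A_51_P469633 over wild type turned to 0.019 (adjusted p = 0.874). Over all alternatives, 9 calls were gained on 7 ratios that were not called, 8 of them in the same direction. Beside those given for Pot1b and Terf2ip A_51_P400335, they were Acd over wild type with no filter on dim probes (-0.187, adjusted p = 0.043), Pot1a A_51_P181152 with the Dnmt1 label on the arrays numbered 2 (0.407, 0.0329), Terf1 with the Dnmt3a,3b label on the arrays numbered 1 (-0.321, 0.0453), and, with its sign turned, Terf2ip A_52_P381813 with the Dnmt3a,3b label on the arrays numbered 2 (-0.286, 0.0476). The number still called was 31 without background correction and with no filter on dim probes, 26 with clone as a replicate block, 24 under the stricter filter, 22 with median centring, 17 with Agilent's processed ratio and 17 with the authors' table. Per comparison (over wild type, Dnmt1 label, Dnmt3a,3b label), the paired fit with a replicate block called 11, 8 and 7 member probes, against 12, 10 and 9. The calls it lost stand beside Terf1, Tinf2 and Terf2, and it moved no count by over 1.5 times. Agilent's ratio called 6, 6 and 6, the authors' deposited ratios 7, 6 and 6, and the fit with shared RNAs modelled 0, 2 and 2. With 1 probe per gene the counts were 6, 4 and 3 of 10 genes, where fewer features are tested. The arrays numbered 1 alone called 7 over wild type, and each comparison fitted alone called 13, 0 and 6. Leaving out 1 clone gave 0 to 3, 6 to 7 and 0 to 1, with the lone clone assumed to vary like the other ratios. The cause of the other changes was not tested. The share of all probes called under each alternative is not given here, so a changed count cannot be read as particular to the members. Between the engineered lines 0 were called under every alternative run there. The dim probes of Pot1a and Pot1b are limited by signal over background.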
